A study of Mus with 16 samples.

Results

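Igf2 and Igf2r were followed as 1 transcript each, ENSMUST00000000033 for Igf2 and ENSMUST00000024599 for Igf2r, chosen by identifier and not by level. They are 2 of the 116747 transcripts listed in every library, with the versions ENSMUST00000000033.12 and ENSMUST00000024599.14. The gene names come with the choice of these identifiers, since the deposited tables pair no transcript with a name. Mouse epiblast stem cells, a pluripotent cell type that corresponds to the epiblast after implantation, were profiled by ribodepleted bulk RNA-seq of total RNA. The cells are F1 hybrids that all carry 1 genome of the laboratory strain C57Bl/6J. The other genome is that of 1 of 4 wild-derived inbred strains and gives the 4 groups, each of 4 libraries, which the titles call CastB6, MolfB6, PwkB6 and SpretB6. Libraries are named here by their cross and the number in their title. The labels do not say which parent was the mother, what the number in a title stands for, or whether libraries of a cross came from separate lines or cultures. The p-values therefore reflect only how much these libraries vary, and some of that variation may be technical. The markers of epiblast stem cells could not be examined, because no source used here ties the other transcripts to gene names.

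Igf2 encodes insulin-like growth factor 2, a secreted growth factor that acts mainly through the IGF1 receptor and promotes growth of the embryo and placenta. Igf2r encodes the cation-independent mannose 6-phosphate receptor, which sorts lysosomal enzymes and also takes up IGF2 and delivers it to lysosomes for breakdown, so that it limits growth. In the mouse both genes are imprinted in opposite ways, Igf2 being expressed mainly from the paternal copy and Igf2r mainly from the maternal copy in most tissues. The deposited values are totals over both alleles, so the parental copy that was read is not resolved here. In the mouse assembly GRCm38.p6, which is the build mm10 named in the submitters' processing notes, Igf2 lies on chromosome 7 from 142650768 to 142666816. Igf2r lies on chromosome 17 from 12682406 to 12769706. The Igf2 transcript has 3708 bases and the Igf2r transcript 8887 bases. Other transcripts of both genes were not summed.

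The libraries held 42596559 to 72364991 estimated counts, meaning reads assigned to transcripts, where a read that matches several transcripts is divided among them. The estimates of both members were fractional in all 16 libraries, within a tolerance of 0.001, so both share reads with other transcripts. Together they took 0.0122% to 0.0384% of the estimated counts of a library.

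The ligand, Igf2, was a transcript of moderate level with a wide range between libraries. Levels are in TPM, a unit that corrects for transcript length and sums to the same total in every library. Over the 16 libraries Igf2 ran from 0.663 TPM in CastB6 3 to 10.1 TPM in PwkB6 3, a 15.2-fold range with a median of 4.24 TPM. It exceeded 46.6% of the transcripts with reads in CastB6 3 and 85.3% of them in PwkB6 3.

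In CastB6, Igf2 stood at 4.43 TPM in library 1, 0.663 in library 3, 1.15 in library 5 and 2.48 in library 6. The mean was 2.18 ± 1.68 TPM (SD, n = 4), and library 1 stood 6.68-fold above library 3. In MolfB6 the level was 4.05 TPM in library 1, 3.82 in library 2, 2.97 in library 3 and 3.999 in library 6. These values lay close together, with a mean of 3.71 ± 0.503 TPM (SD, n = 4). In PwkB6 it was 4.52 TPM in library 1, 10.1 in library 3, 7.85 in library 5 and 5.52 in library 6, with a mean of 6.99 ± 2.49 TPM (SD, n = 4). PwkB6 held the highest levels of the series, in libraries 3 and 5. In SpretB6 it was 5.52 TPM in library 1, 5.15 in library 3, 6.74 in library 5 and 3.51 in library 6, with a mean of 5.23 ± 1.33 TPM (SD, n = 4). The order of the means was PwkB6, SpretB6, MolfB6 and CastB6. The ranges of neighbours in that order overlapped for PwkB6 with SpretB6, for SpretB6 with MolfB6 and for MolfB6 with CastB6.

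The range between libraries was wider than counting error. CastB6 3 held the fewest Igf2 reads, an estimated 110.1, for which an exact Poisson interval at 95% runs from 0.544 to 0.798 TPM. PwkB6 5 held the most, 1677.2 reads, with an interval from 7.48 to 8.23 TPM. Such intervals cover counting error only, not the division of reads among transcripts.

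The receptor, Igf2r, was more abundant and less variable. It ran from 16.3 TPM in CastB6 5 to 49.0 TPM in PwkB6 5, a 2.998-fold range with a median of 35.2 TPM. It exceeded between 89.6% and 96.1% of the transcripts with reads in a library, and its estimated reads numbered 6674.0 to 25682.6.

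In CastB6, Igf2r stood at 38.4 TPM in library 1, 16.4 in library 3, 16.3 in library 5 and 27.5 in library 6, with a mean of 24.7 ± 10.6 TPM (SD, n = 4). The libraries low in Igf2, 3 and 5, were also the lowest in Igf2r. In MolfB6 it was 37.5 TPM in library 1, 23.0 in library 2, 41.0 in library 3 and 35.6 in library 6, with a mean of 34.3 ± 7.84 TPM (SD, n = 4). Here the order differed from that of Igf2, as library 3 was highest in Igf2r and lowest in Igf2. In PwkB6 it was 37.1 TPM in library 1, 48.5 in library 3, 49.0 in library 5 and 48.6 in library 6, with a mean of 45.8 ± 5.79 TPM (SD, n = 4). Libraries 3, 5 and 6 of PwkB6 stood above all 13 other libraries. In SpretB6 it was 28.6 TPM in library 1, 28.0 in library 3, 34.8 in library 5 and 20.3 in library 6, with a mean of 27.9 ± 5.94 TPM (SD, n = 4). The order of the means was PwkB6, MolfB6, SpretB6 and CastB6, and each neighbouring pair in it overlapped in range. SpretB6 thus came next after PwkB6 for the ligand, but after both PwkB6 and MolfB6 for the receptor.

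**Figure D1:**
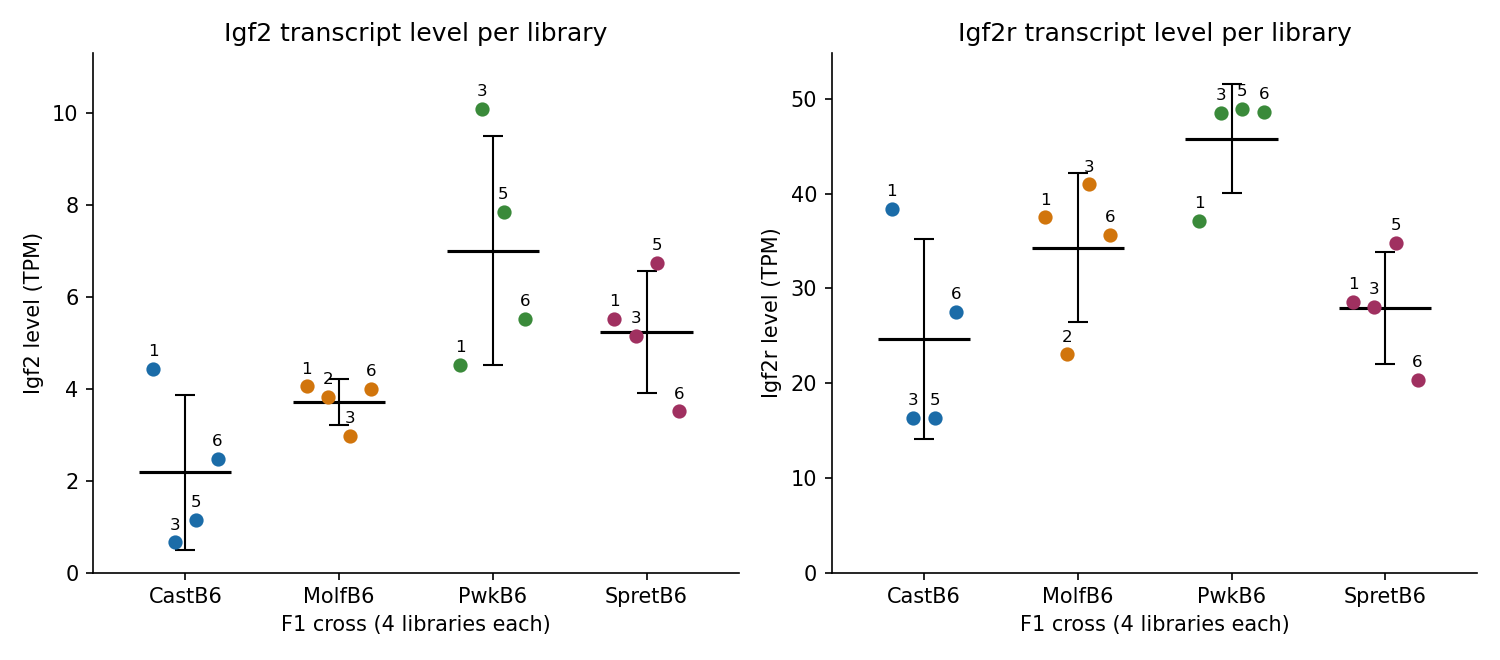
Level of the Igf2 transcript (left) and the Igf2r transcript (right) in each library, in TPM on linear axes from 0, by F1 cross. Points are libraries with the number from their title, the long horizontal line is the mean and the bar is 1 SD (n = 4). CastB6 3 and 5 are the lowest libraries for both transcripts, at 0.663 and 1.15 TPM of Igf2, and PwkB6 3 and 5 are the highest for Igf2.

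Whether the crosses differed was tested on the estimated counts with 1 edgeR quasi-likelihood fit over all 56721 transcripts that passed a filter on low counts, with p-values adjusted by the Benjamini-Hochberg method and called below 0.05. In the joint test of the 4 crosses, 0 of the 2 members were called, where 9.73% of all tested transcripts were. For Igf2 the highest and lowest fitted cross means were those of PwkB6 and CastB6, -1.50 for CastB6 minus PwkB6 in log2 CPM (counts scaled to the library total), with an unadjusted p of 0.0311 and an edgeR adjusted p of 0.158. For Igf2r they were those of the same crosses, at -0.67, with an unadjusted p of 0.0412 and an edgeR adjusted p of 0.186. Both unadjusted values lay below 0.05, as did those of 24% of all tested transcripts. DESeq2 called 0 of the 2 members in the joint test, with 19.4% of all tested transcripts called, and limma voom also 0, with 10.9%. The result for both depended on CastB6 1, the CastB6 library with the highest level of each. Without it the edgeR adjusted p was 0.0245 for Igf2, with the extremes 2.11 apart, and 0.0226 for Igf2r, with the extremes 0.97 apart, where 8.87% of all tested transcripts were called. Over the other libraries left out in turn, neither was called.

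Among the pairs of crosses, PwkB6 and CastB6 lay farthest apart for both transcripts. Mean Igf2 was 3.21-fold higher in PwkB6 than in CastB6 on the TPM scale, and the 4 libraries of each cross did not overlap, as for 11.2% of all tested transcripts. In log2 CPM scaled by the trimmed mean of M values (TMM) they did overlap. The fitted log2 difference, CastB6 minus PwkB6, was -1.50 ± 0.46 (SE; edgeR adjusted p = 0.0879). For Igf2r the mean TPM was 1.86-fold higher in PwkB6, the ranges overlapped, and the fitted log2 difference was -0.67 ± 0.23 (SE; edgeR adjusted p = 0.127). This comparison called 3.76% of all transcripts and neither member. Leaving out CastB6 5, PwkB6 1 or CastB6 3 lowered that share to between 1.79% and 2.27%, and leaving out PwkB6 5 raised it to 5.73%. Igf2 was called in it by DESeq2 (-1.48, adjusted p = 0.0182) and by limma voom (-1.69, adjusted p = 0.0445), which called 10.0% and 4.39% of all tested transcripts in this pair. Without CastB6 1, edgeR called both, at -2.11 for Igf2 (adjusted p = 0.0139) and -0.97 for Igf2r (adjusted p = 0.0153), with 3.53% of all tested transcripts called.

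Between CastB6 and SpretB6 the fitted gap was wider for the ligand than for the receptor, and the test of that contrast is the one on their ratio given further on. Mean Igf2 was 2.40-fold higher in SpretB6, with a log2 difference of -1.18 ± 0.45 for CastB6 minus SpretB6 (SE; edgeR adjusted p = 0.166). Mean Igf2r was 1.13-fold higher, with a log2 difference of -0.09 ± 0.23 (SE; edgeR adjusted p = 0.915). Neither was called, against 6.05% of all tested transcripts. The ranges of both members overlapped in TPM, while those of 16.6% of the tested transcripts did not. Without CastB6 1, Igf2 was called here at -1.79 (edgeR adjusted p = 0.0229), with 4.77% of all tested transcripts called. The sign for Igf2r turned without CastB6 3 (0.06), without CastB6 5 (0.03) and without SpretB6 5 (0.01).

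PwkB6 and SpretB6 did not overlap in the receptor. The 4 PwkB6 libraries held 37.1 to 49.0 TPM of Igf2r and the 4 SpretB6 libraries 20.3 to 34.8 TPM. The TPM ranges of 13.9% of all tested transcripts were likewise apart, and those of Igf2r were also apart in log2 CPM. The log2 difference, PwkB6 minus SpretB6, was 0.58 ± 0.23 (SE; edgeR adjusted p = 0.183). For Igf2 it was 0.32 ± 0.45 (SE; edgeR adjusted p = 0.795), and without PwkB6 3 it was 0.03. In this pair 5.50% of all transcripts were called and neither member.

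In the 3 pairs with MolfB6 neither member was called. Against PwkB6, where 1.20% of all transcripts were called (0.742% to 0.797% without MolfB6 1, MolfB6 6 or PwkB6 1), the log2 difference of MolfB6 was -0.78 ± 0.45 for Igf2 (SE; edgeR adjusted p = 0.551) and -0.28 ± 0.23 for Igf2r (SE; edgeR adjusted p = 0.731). The Igf2 ranges of MolfB6 and PwkB6 did not overlap in TPM, as for 7.98% of the tested transcripts, but did in log2 CPM, and without PwkB6 3 the Igf2 difference was -0.49. Against CastB6, where 2.76% were called (1.48% to 1.83% without MolfB6 1, 3 or 6 or CastB6 3 or 5) and 10.6% did not overlap, CastB6 minus MolfB6 was -0.72 ± 0.45 for Igf2 (SE; edgeR adjusted p = 0.553) and -0.39 ± 0.23 for Igf2r (SE; edgeR adjusted p = 0.518). Without CastB6 1 the Igf2 value was -1.33 and the Igf2r value -0.68, and without CastB6 3 they were -0.41 and -0.23, none of them called. Against SpretB6, where 5.53% were called and 15.7% did not overlap, MolfB6 minus SpretB6 was -0.46 ± 0.45 for Igf2 (SE; edgeR adjusted p = 0.736) and 0.30 ± 0.23 for Igf2r (SE; edgeR adjusted p = 0.625). The ligand thus had the lower fitted mean in MolfB6 and the receptor the higher one, with neither difference called.

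In all, edgeR called 0 of the 12 tests of a member in a pair of crosses, and 4 of the 12 had an unadjusted p below 0.05, where 12% to 19.1% of all tested transcripts did in a pair. DESeq2 called 1 of the 12, against 4.34% to 11% of all tested transcripts per pair, and limma voom called 1, against 1.42% to 6.58%. With standard errors of 0.45 to 0.46 for Igf2 and 0.23 for Igf2r, these tests do not show that the crosses have equal levels.

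**Figure D2:**
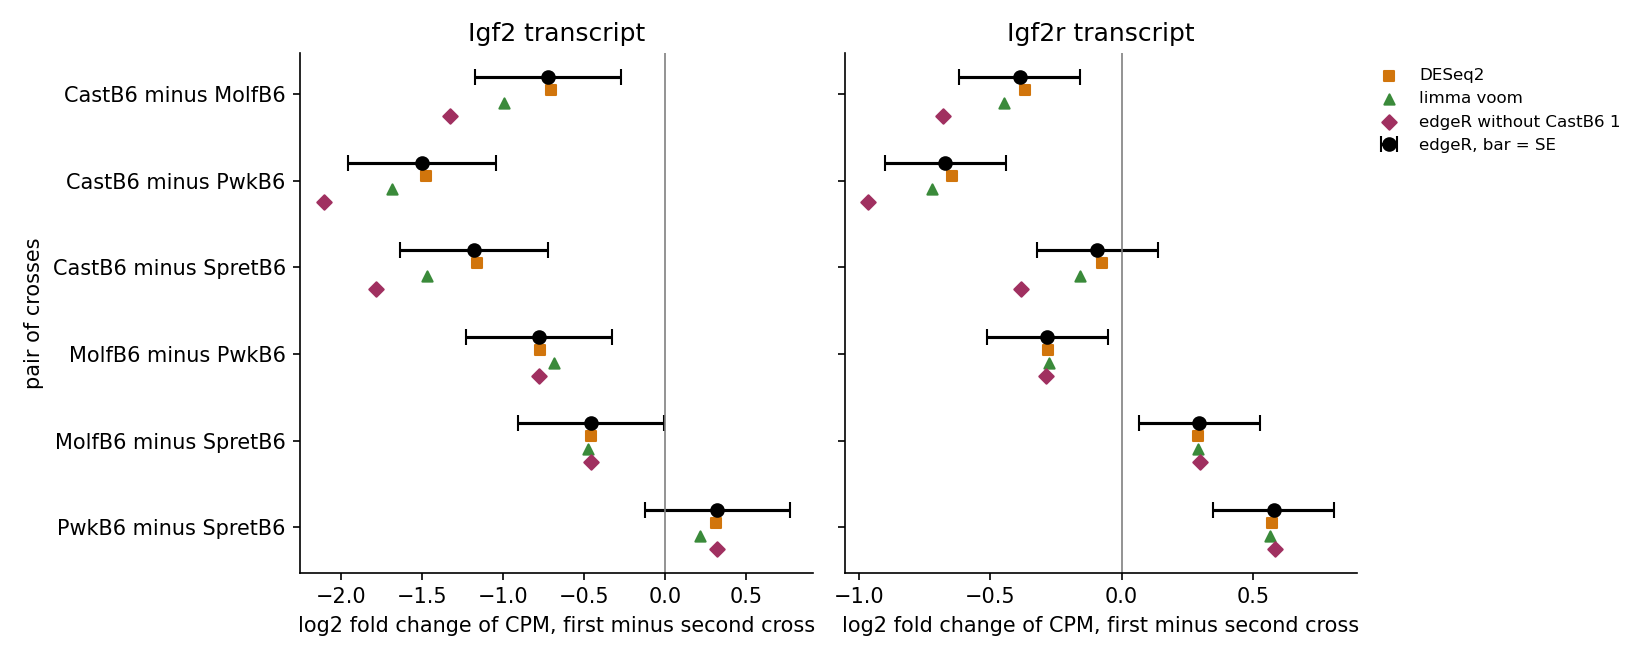
Fitted log2 fold change of CPM between each pair of crosses (first minus second) for Igf2 (left) and Igf2r (right). Each panel has its own linear horizontal scale, black points are edgeR estimates with a bar of 1 SE, and the other symbols are DESeq2, limma voom and edgeR without CastB6 1. Leaving out CastB6 1 moves the CastB6 minus PwkB6 difference from -1.50 to -2.11 for Igf2 and from -0.67 to -0.97 for Igf2r.

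Per unit of length, the receptor exceeded the ligand in all 16 libraries. The smallest gap was in PwkB6 3, where Igf2r stood 4.81-fold above Igf2, and the largest in CastB6 3, where it stood 24.7-fold above. A ratio within a library does not depend on how libraries are scaled to each other. It does depend on any loss of reads from the wild-derived allele that differs between the 2 transcripts, and such loss was not measured. The Igf2 level was 11.5% of the Igf2r level in CastB6 1, 4.05% in CastB6 3, 7.03% in CastB6 5 and 9.003% in CastB6 6. In MolfB6 it was 10.8% in library 1, 16.6% in library 2, 7.24% in library 3 and 11.2% in library 6. These ranges overlapped, and both crosses varied by more than 2-fold among their own libraries. In PwkB6 the ratio was 12.2% in library 1, 20.8% in library 3, 16.03% in library 5 and 11.4% in library 6. In SpretB6 it was 19.3% in library 1, 18.4% in library 3, 19.4% in library 5 and 17.3% in library 6. The SpretB6 libraries were close to each other and all above the 8 libraries of CastB6 and MolfB6. Ratios of other transcripts were not computed, so how common such a separation is among ratios is not known. For single transcripts, the TPM ranges of SpretB6 lay apart from CastB6 in 16.6% of those tested and from MolfB6 in 15.7%.

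The CastB6 mean of this ratio was 7.90% ± 3.16 and the MolfB6 mean 11.5% ± 3.86 (SD, n = 4 each). The PwkB6 mean was 15.1% ± 4.31 and the SpretB6 mean 18.6% ± 0.978 (SD, n = 4 each). On the log2 scale the highest and lowest cross means differed by 1.33, and the spread between crosses was larger than in all but a share of 0.00727 of the 2627625 divisions of the libraries into 4 sets of 4 (one-sided exact permutation p = 0.00727). Leaving out 1 library at a time gave p-values from 0.00341 to 0.0187 in the same exact permutation test. No ratio of other transcripts was tested beside it. Among single transcripts, 24% had an unadjusted p below 0.05 in the joint edgeR test. Of the 6 pairs, none passed after adjustment over the 6. CastB6 minus SpretB6 was -1.33 on the log2 scale and MolfB6 minus SpretB6 was -0.76, both with a two-sided exact permutation p of 0.0286 and an adjusted p of 0.0857. The value 0.0286 is the smallest that 4 against 4 libraries can give. CastB6 minus PwkB6 was -0.99 (two-sided exact permutation p = 0.0571, adjusted p = 0.114). The other 3 pairs, MolfB6 with PwkB6, CastB6 with MolfB6 and PwkB6 with SpretB6, gave -0.42, -0.57 and -0.34, each with an adjusted exact permutation p of 0.229. The joint difference thus passed the threshold of 0.05. A pair at 0.0286 can pass after adjustment only if most of the 6 pairs reach that value. That no pair passed was therefore largely set by the number of libraries, and the pair tests do not show which crosses differ.

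**Figure D3:**
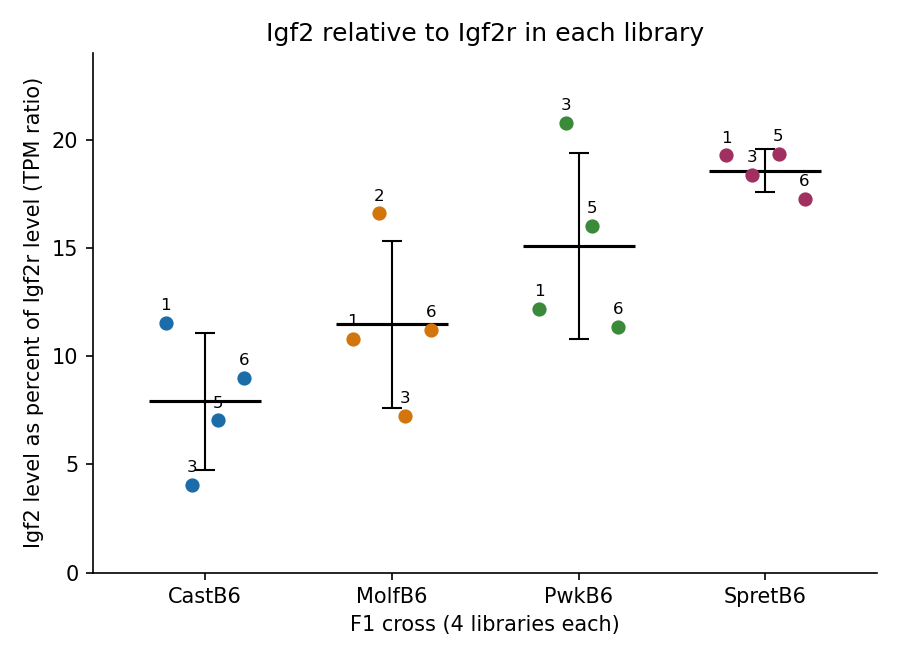
Igf2 level as a percent of the Igf2r level in each library, from TPM, on a linear axis from 0, by F1 cross. Points are libraries with the number from their title, the long line is the mean and the bar is 1 SD (n = 4). The 4 SpretB6 libraries lie between 17.3% and 19.4%, above all CastB6 and MolfB6 libraries, and the PwkB6 libraries run from 11.4% to 20.8%.

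Ligand and receptor varied together between libraries. Over the 16 libraries, log2(TPM + 1) of Igf2 and Igf2r correlated with a Pearson r of 0.79 (permutation p = 0.00014) and a Spearman rho of 0.69 (permutation p = 0.0038). When the mean of each cross was subtracted from its libraries, r was 0.77 (p = 0.0051 in an exact permutation test within crosses). The rho of these deviations was 0.70 (p = 0.012, same test, with the ranks centred again within each cross). The libraries that lay above their own cross mean in one transcript thus tended to do so in the other, though not in every cross. In log2 CPM the signs differed in MolfB6 2 (0.27 for Igf2, -0.32 for Igf2r) and MolfB6 3 (-0.43 and 0.17). The widest deviations were in CastB6, at 1.34 and 0.70 in library 1 and -1.33 and -0.47 in library 3. The form within crosses was not repeated without a cross. With 2 forms of the correlation computed, the adjusted permutation p for r was 0.00028 over all libraries and 0.0051 within crosses. CastB6 3 and CastB6 5 lay farthest from the Igf2 median, and without them r was 0.55 (permutation p = 0.043) and rho was 0.54 (permutation p = 0.049). Without all 4 CastB6 libraries, an alternative added after the data were seen, r over the other 12 was 0.52 (permutation p = 0.08). Leaving out the 4 PwkB6 libraries in the same way gave r = 0.70 (permutation p = 0.011) and rho = 0.52 (permutation p = 0.088). Without the 4 MolfB6 libraries r was 0.87, and without the 4 SpretB6 libraries it was 0.89. The strength of the relation therefore rests in part on CastB6 and on PwkB6, the crosses with the lowest and highest means.

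**Figure D4:**
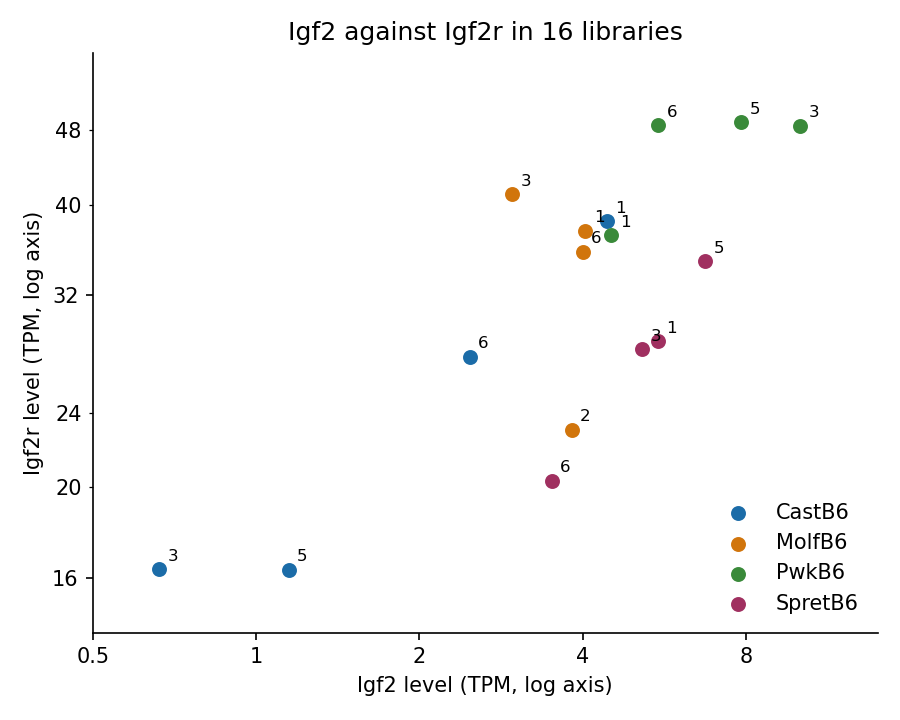
Igf2 level against Igf2r level in the 16 libraries, in TPM on log axes, coloured by F1 cross and marked with the number from the title. CastB6 3 and 5 lie at the lower left, at 16.4 and 16.3 TPM of Igf2r, while PwkB6 3, 5 and 6 lie at the top at 48.5 to 49.0 TPM. CastB6 6 and SpretB6 3 lie at a near height, at 27.5 and 28.0 TPM of Igf2r, with 2.48 and 5.15 TPM of Igf2.

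The correlation of both members was set beside those of the other 31741 transcripts that passed the filter with a mean of at least 1 CPM. In log2 CPM the r between Igf2 and Igf2r was 0.77, which ranked 420th among all correlations with Igf2 and 438th among all correlations with Igf2r. The median r was -0.04 with Igf2 and -0.05 with Igf2r. An r above 0.8 was reached by 316 transcripts with Igf2 (0.996%) and by 308 with Igf2r (0.970%), so many transcripts followed each member more closely than the other member did. These correlations describe 16 libraries that share their cross and their scaling, and they carry no test.

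The closest transcripts to Igf2 were ENSMUST00000019992.6 (r = 0.98, rho = 0.97) and ENSMUST00000062010.10 (r = 0.97, rho = 0.96). The first was highest in PwkB6, at 5.21 ± 1.42 TPM, followed by SpretB6 with 4.63 ± 1.54, MolfB6 with 2.89 ± 0.457 and CastB6 with 1.44 ± 1.35 (SD, n = 4 each), the same order of crosses as Igf2. Within crosses its r with Igf2 was 0.96. The closest to Igf2r were ENSMUST00000041168.6 (r = 0.92, rho = 0.87) and ENSMUST00000028633.13 (r = 0.92, rho = 0.82). The latter stood at 33.9 ± 4.60 TPM in PwkB6, against 15.5 ± 14.4 in CastB6, 16.3 ± 4.28 in MolfB6 and 16.3 ± 6.96 in SpretB6 (SD, n = 4 each). ENSMUST00000062010.10 was low in level, from 0.113 ± 0.157 TPM in CastB6 to 0.713 ± 0.581 in PwkB6 (SD, n = 4 each). ENSMUST00000041168.6 was also low, from 0.338 ± 0.292 TPM in CastB6 to 0.657 ± 0.150 in PwkB6 (SD, n = 4 each). The genes of these 4 transcripts are not paired with their identifiers in the sources used here.

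The share of the variance of log2 CPM that lay between crosses was 54.5% for Igf2 and 47.2% for Igf2r, against a median of 30.5% over all tested transcripts. These shares exceeded those of 81.2% and 73.7% of the tested transcripts. The comparison was not matched for level, and the members had mean levels of 13.2 CPM (Igf2) and 236.8 CPM (Igf2r). The filter of 5 CPM kept 18781 transcripts of which 23.7% were called among the 4 crosses, against 9.73% of the 56721 tested here. The rest of the variance of each member lay between libraries of a cross, and for Igf2 most of all in CastB6. The SD of log2 CPM of Igf2 was 1.14 in CastB6, 0.65 in PwkB6, 0.32 in SpretB6 and 0.30 in MolfB6 (n = 4 each), where the medians over all tested transcripts were 0.45, 0.52, 0.36 and 0.40. For Igf2r the SD was 0.53 in CastB6, 0.27 in PwkB6, 0.25 in SpretB6 and 0.22 in MolfB6. Igf2r was thus below the median transcript in spread in every cross but CastB6, with medians likewise not matched for level.

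Within CastB6 the same libraries were high or low for both members. Igf2 in CastB6 1 stood 1.34 above the cross mean in log2 CPM, a higher deviation than that of 92.7% of the tested transcripts in that library, and Igf2r stood 0.70 above. In CastB6 3, Igf2 stood at -1.33 from the mean, with 7.69% of the tested transcripts lower, and Igf2r at -0.47, with 21.01% lower. CastB6 3 and CastB6 5 also had the fewest transcripts with reads in their cross, 61229 and 62426 against 63003 and 64367, and the lowest TMM scaling factors, 0.927 and 0.879 against 0.955 and 1.00. The part of these library features in the levels of the members was not tested. In bulk RNA, fewer cells that express a gene and less RNA per cell cannot be told apart.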

How the data were processed

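Each of 16 libraries has 1 deposited table with 1 row per transcript. The deposited NumReads column is taken as estimated counts, meaning reads per transcript, not scaled. The deposited TPM column is taken by its name to add up to the same total in every library. The deposited Length and EffectiveLength columns give bases per transcript. Salmon, DESeq2 and mm10 are listed in the submitters' processing notes. Versions, the set of transcripts and the handling of strand and of reads from the wild-derived allele are not stated in these sources, and the loss of such reads was not measured. Library totals ran from 42596559 to 72364991 estimated counts.

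Groups were taken from the titles. The members, lists and tests were chosen with earlier results of these data known. Estimated counts were rounded and fitted with edgeR 4.0.16 in R 4.3.3, with filterByExpr (minimum count 10, minimum total 15), TMM scaling and all 16 libraries in 1 quasi-likelihood fit, with adjusted p-values over 56721 transcripts. Standard errors were derived from the F statistic. The fit was tested on simulated counts. Log2 CPM used a prior count of 2. Ratios were compared by exact permutation of libraries, and correlations by 100000 permutations or by all 331776 reorderings within crosses. Alternatives were DESeq2 1.42.0, limma 3.58.1 (voom, and log2 TPM with a pseudocount of 1 or 0.1), RLE scaling, other filters, a replicate block, fits of only the crosses compared, and leaving out each library. Named besides the members are the 2 transcripts most correlated with each in log2 CPM. The planned lists of cell type markers and of the IGF pathway were not run, because 0 of the 116747 identifiers matched the RefSeq gene table.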

Additional observations from a re-analysis of the deposited data

Results flagged for a closer look

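In 12 groups of 4 libraries (Igf2 TPM, Igf2r TPM and their ratio in each cross), 1 group had a library far from the other 3 relative to the range of the group. The Igf2r level of PwkB6 1 was 37.1 TPM, while PwkB6 3, 5 and 6 held 48.5 to 49.0 TPM. Chance flags about 1 in 20 such groups, and the groups are not independent. In Igf2, PwkB6 1 was also the lowest library of its cross, at 4.52 TPM, without standing as far from the next.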

How the results depend on the processing

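The tests across crosses lay near their threshold for CastB6 against PwkB6, and several alternatives crossed it. On log2(TPM + 1) and log2(TPM + 0.1), limma called Igf2 among the 4 crosses (1.43 and 1.89), for CastB6 minus PwkB6 (-1.43 and -1.89) and for CastB6 minus SpretB6 (-1.09 and -1.51), and it called Igf2r for CastB6 minus PwkB6 (-0.95 and -0.98). With log2(TPM + 1), limma called 12.1% of all tested transcripts among the 4 crosses, 5.07% for CastB6 minus PwkB6 and 7.32% for CastB6 minus SpretB6. With log2(TPM + 0.1) these shares were 11.6%, 4.94% and 7.33%. For CastB6 minus PwkB6, the filter of 5 CPM called Igf2 (-1.59) and Igf2r (-0.79), with 10.5% of the transcripts it tested called. In the same pair DESeq2 (-1.48) and limma voom (-1.69) called Igf2, with 10.0% and 4.39% of all tested transcripts called. RLE scaling, no filter and fits of only the 2 crosses compared called neither member in any comparison. Per pair they called 1.2% to 6.05%, 0.557% to 2.72% and 0.737% to 8.42% of the transcripts tested.

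Leaving out each library in turn gave, for Igf2, 1.19 to 2.11 among the 4 crosses, -2.11 to -1.19 for CastB6 minus PwkB6 and -1.79 to -0.87 for CastB6 minus SpretB6. For Igf2r it gave 0.57 to 0.97 among the 4 crosses, -0.97 to -0.51 for CastB6 minus PwkB6 and -0.38 to 0.06 for CastB6 minus SpretB6, where the sign turned without CastB6 3 (0.064), CastB6 5 (0.034) and SpretB6 5 (0.013). The calls gained in this way all came from leaving out CastB6 1. The correlation of Igf2 with Igf2r was 0.52 and no longer passed without the 4 CastB6 libraries (the cause was not tested). The joint test of the ratio of Igf2 to Igf2r passed without each library, which gave 1.04 to 1.55 among the 4 crosses. It gave 1.33 with counts per full length or uncorrected for length, as with TPM. Full lengths are the same in every library and effective lengths hardly differed, so these forms are 1 test and no separate check on TPM. The 6 pair tests of the ratio have too few divisions to say much about stability. Without 1 library their values ran from -0.79 to -0.29 for CastB6 minus MolfB6 and from -0.61 to -0.22 for MolfB6 minus PwkB6.

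No strong pairing of libraries by title number was seen. Of 21 library pairs with the same number in different crosses, 1 had a correlation of deviations over 0.1, and the median was -0.02. Of 75 pairs with different numbers, 5 were over 0.1, and the median was 0.006. The highest correlation was 0.13 with the same number and 0.22 with different numbers. MolfB6 2 shares its number with no library of another cross, so in the replicate block it adds nothing to the differences between crosses. With the replicate block, CastB6 minus PwkB6 was -1.61 for Igf2 and -0.68 for Igf2r. edgeR called 0 of the 12 pair tests, against 0.536% to 4.46% of tested transcripts per pair, and 0 of the 2 joint tests, against 6.31%. Unadjusted p-values below 0.05 numbered 4 and 0, against 9.86% to 18% and 21.5%.

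Igf2 and Igf2r are each represented by 1 transcript that shares reads with others, and the error of that division is in none of the tests. Igf2 in CastB6 3 rests on 110.1 reads.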
